A study of Mus musculus with 47 samples.

Results

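Hmgcs1, Idi1, Fdft1, Sqle and Cyp51, which encode enzymes of cholesterol synthesis, and Srebf2 and Insig1, which encode proteins that set the output of that pathway, were followed in mouse P19 cells before and after neuronal differentiation. The 7 genes were taken by name, with earlier results of these data known, so their counts beside those of all genes are descriptions only. They were found through the RefSeq accession of their 3′ UTR among 18854 genes with an mRNA 3′ UTR in the data. All 7 passed the filter on low counts in the comparison of cells without label. At D6 the reads of Hmgcs1 were 4.9-fold those at D0, those of Fdft1 4.04-fold and those of Cyp51 2.07-fold, in 3 libraries per state of cells that received no label. Hmgcs1 kept its call when any library was left out, and was 2.79-fold higher at D6 after 15 h of label, whereas the calls of Fdft1 and Cyp51 were lost without any of 5 of the 6 libraries and neither gene passed after 15 h. Sqle, Srebf2 and Insig1 had higher mean values at D6 in the same libraries but did not pass the test, and Idi1 was too rare for a statement on its direction. In a fit of all 47 libraries, chosen after seeing the data, Hmgcs1, Fdft1, Cyp51, Srebf2 and Insig1 passed as higher at D6, where 20.1% of all genes were called higher and 28.8% lower. In the loss of label during a chase, 0 of the 6 genes with enough coverage passed the test of a difference between the states, where 0.0438% of all genes passed, so this count says nothing particular about the 6.

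P19 is an established line of embryonal carcinoma cells, here wild-type, which turns into neurons under retinoic acid. Undifferentiated cells (D0) were kept in DMEM with 10% fetal bovine serum, and differentiated cells (D6) were cultured for 6 days in NDiff 227 medium with 500 nM retinoic acid. RNA was labeled with 4-thiouridine (4sU), a uridine analog that is read as a T>C conversion after alkylation, at 20 µM in D0 and 500 µM in D6 cells. The anabolic assay (uptake) sampled cells from 0 to 9 h after 4sU was added, and the catabolic assay (chase) sampled them from 0 to 9 h after 15 h of 4sU were followed by medium with 10 mM unlabeled UTP. Each state, assay and time had 3 libraries, with the exception of the third point of the D6 chase, which had 2. Only the libraries at 0 h of uptake held no 4sU, so in every other library the state, the medium and the dose of 4sU cannot be told apart, and in the libraries without 4sU the state and the medium cannot. As all libraries came from bulk cultures of 1 line, fewer cells with an mRNA and less of it per cell cannot be told apart either.

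Cholesterol is built from acetyl-CoA through mevalonate, the isoprenoid units, squalene and lanosterol. When membranes of the endoplasmic reticulum run low in sterols, the protein SCAP carries the membrane-bound factor SREBP2, encoded by Srebf2, to the Golgi, where it is cut, and the freed part enters the nucleus and binds sterol regulatory elements in promoters of the pathway genes. Insig1 retains SCAP when sterols are plentiful and is itself a target of SREBP2, and nerve cells of the brain depend on cholesterol made within the brain, since lipoproteins of the blood do not cross into it.

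The promoter sequences show which of the 7 genes carry the letters of such an element near their start. RefSeq promoter windows (GRCm38.p6, from 250 bases before to 50 bases after the start site) were held for 5 of the 7 genes: Hmgcs1, Idi1, Cyp51, Srebf2 and Insig1. The core TCACCNCA, searched on both strands, in a form chosen with these sequences in view, occurred in 3 of the 5 windows and in 4.42% of 32851 promoter windows. The matches lay at chr13:119690203-119690232 for Hmgcs1 (core from −137 to −130 of the start site), at chr15:82147096-82147125 for Srebf2 (−162 to −155) and at chr5:4104767-4104796 for Cyp51 (−88 to −81). They are printed with their flanks, on the strand of the gene, with the core in capitals.
Hmgcs1: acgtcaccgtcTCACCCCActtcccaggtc
Srebf2: atgacgcaccaTCACCCCAtgagccgcttc
Cyp51: ataggccgagaTCACCTCAgcagcgcgtgg
The Hmgcs1 and Srebf2 cores had the same 8 letters. Insig1 and Idi1 had no match in these windows, which says only that the letters are not there. The letters CCAAT, the box bound by NF-Y, stood on one or the other strand in 37.4% of promoter windows and in all 5 of these, with 4 matches in Hmgcs1, 2 in Idi1 and 1 in each of the others. The Insig1 box (chr5:28071185-28071214) and one of the Idi1 boxes (chr13:8885550-8885579) are printed on the strand of the gene, where they read as ATTGG, in capitals.
Insig1: gccctcctcccATTGGctccggcggcctca
Idi1: gcctccagctgATTGGcgagcccgggcatg
These matches are descriptions of the windows, and binding was not measured here. As the form of the core was chosen with these windows in view, its share among them beside that of all promoter windows supports nothing.

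The measured stretches were the 3′ UTRs of the 7 genes (mm10). For Hmgcs1 this was NM_001291439.1, chr13:119706479-119708260, whose interval is shared with NM_145942.5, and for Idi1 NM_145360.2, chr13:8890636-8892396. Fdft1 was read at NM_010191.3, chr14:63145150-63146749, and Sqle at NM_009270.3, chr15:59330918-59331193, a 3′ UTR of only 276 bases. Cyp51 was read at NM_020010.2, chr5:4080674-4083124, Srebf2 at NM_033218.1, chr15:82203918-82204960, and Insig1 at NM_153526.5, chr5:28076821-28078662. Mean coverage of T positions per library ranged from 842 for Idi1 to 72530 for Hmgcs1. Idi1 fell below the minimum of 1000 covered T positions and entered no test of label.

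Libraries held between 1337454 and 10706807 reads on 3′ UTRs (median 5279070), and the 4 libraries under 2000000 reads were all of D6. The summed reads of embryonal carcinoma markers ranged from 434.5 to 535.1 CPM (reads scaled to a common library size) at D0 and from 1.741 to 2.758 at D6, where the 3 markers tested (of 6 listed) were near 0. These 3 passed the filter on low counts through D0 alone, so their calls support nothing. Those of neuronal markers ranged from 496.1 to 680.4 CPM at D0 and from 7495 to 8728 at D6, with 5 of 6 called higher without 4sU, beside 7.33% of all genes. Markers of neural progenitors also differed, from 114.3–135.2 to 831.4–1162 CPM, mainly through Hes5. Of these 4 markers, 1 was called without 4sU, namely Hes5. It had 0.6503–1.084 CPM at D0 and passed the filter on low counts through D6 alone, so its call supports nothing. Markers of glia (4.773–48.33 and 25–51.47) and of endoderm and mesoderm (0–6.079 and 4.272–10.42) stayed low. The part of this change in cell type in the results below was not tested. The series describes the libraries of a group as biological replicates, without saying more of how the cultures were separated, and p-values measure the spread between these libraries.

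The first comparison asks how much mRNA of each gene was present at D0 and D6 without 4sU. Hmgcs1, the cytosolic synthase that makes HMG-CoA at the start of the pathway, had 259.7, 343.8 and 239.3 CPM at D0 and 1599, 1271 and 1236 CPM at D6. Every D6 library lay far above every D0 library. The difference was 2.29 on the log2 scale (SE 0.26, adjusted p = 0.000246, edgeR quasi-likelihood test with Benjamini-Hochberg adjustment over all genes).

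Idi1, the isomerase that supplies dimethylallyl diphosphate, had 6.776, 1.517 and 27.72 CPM at D0 and 3.342, 8.065 and 0.159 CPM at D6. The groups overlapped and single libraries within a state differed by more than the states did. The log2 difference of −1.62 (SE 1.86, adjusted p = 0.683) was within its error. Idi1 was at 0 in 12 libraries, 2 of D0 and 10 of D6, where a count of 0 allows up to 0.449 to 2.24 CPM, a limit that covers counting error only.

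Fdft1, squalene synthase, had 18.6, 42.48 and 18.58 CPM at D0 and 100.5, 83.23 and 136.6 CPM at D6. The lowest D6 library was above the highest D0 library. The difference of 2.01 (log2, SE 0.54) passed the test with an adjusted p of 0.0325, but not when any of D6 replicates 37, 38 and 39 or D0 replicates 55 and 57 was left out (adjusted p up to 0.137).

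Sqle, squalene epoxidase, which catalyses the first oxygenation on the way to sterols, had 42.96, 67.41 and 71.4 CPM at D0 and 90.48, 82.91 and 101.3 CPM at D6. The groups did not overlap, yet the difference was small. It was 0.61 on the log2 scale (SE 0.43, adjusted p = 0.452) and did not pass.

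Cyp51, the lanosterol demethylase, had 163.5, 136.3 and 167.1 CPM at D0 and 372.9, 331 and 253.7 CPM at D6. The D6 libraries were all higher. The log2 difference was 1.05 (SE 0.28, adjusted p = 0.0356), and leaving out any of the same 5 libraries as for Fdft1 also ended this call (adjusted p up to 0.14).

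Srebf2, the gene of SREBP2, had 93.42, 26.66 and 145.1 CPM at D0 and 155.2, 135.5 and 160.2 CPM at D6. The D0 libraries were widely spread and one of them lay within the range of D6. The difference of 0.78 (log2, SE 0.52, adjusted p = 0.412) did not pass.

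Insig1 had 22.2, 85.4 and 43.98 CPM at D0 and 87.85, 220 and 127.1 CPM at D6. The highest D0 library was just under the lowest D6 library. The log2 difference was 1.52 (SE 0.55, adjusted p = 0.102). It passed without D0 replicate 56, the D0 library with most Insig1 reads (adjusted p = 0.0227).

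Of the 7 genes, 3 rose (Hmgcs1, Fdft1, Cyp51) and 0 fell, where 7.33% of all genes tested were called higher and 5.32% lower. DESeq2 called the same 3 genes, and 17.6% of all genes in either direction. In 1 fit of all 16 groups Hmgcs1 was still called, while Fdft1 (adjusted p = 0.23) and Cyp51 (adjusted p = 0.0536) were not. In 5 of the 7 genes every D6 library was above every D0 library, an order seen in 15.9% of genes with any read in these libraries. The median difference was 1.05 over the 7 genes and −0.05 over all genes (log2).

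The comparison was repeated in the libraries at 0 h of the chase, that is after 15 h of 4sU. Hmgcs1 had 222, 276 and 366.2 CPM at D0 and 786.4, 727 and 765.8 CPM at D6. The states were again apart, by less than without 4sU. The difference was 1.48 (log2, SE 0.24, adjusted p = 0.00235), or 2.79-fold.

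Srebf2 had 55.17, 31.79 and 40.08 CPM at D0 and 111.9, 127.6 and 105.5 CPM at D6. The groups did not overlap. The difference of 1.52 (log2, SE 0.42, adjusted p = 0.0345) passed, but was lost without any of D6 replicates 07, 08 and 09 or D0 replicates 26 and 27 (adjusted p up to 0.113) and in 1 fit of all 16 groups (adjusted p = 0.145).

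Insig1 had 80.36, 106.5 and 53.54 CPM at D0 and 124.2, 189.4 and 184.3 CPM at D6, and Cyp51 had 123.1, 211.2 and 164.3 at D0 and 281.5, 218.6 and 230 at D6. Both genes were higher in each D6 library than in any D0 library. Neither passed, with log2 differences of 1.13 (SE 0.37, adjusted p = 0.0666) for Insig1 and 0.63 (SE 0.29, adjusted p = 0.203) for Cyp51. Insig1 passed without D0 replicate 26 (adjusted p = 0.0393).

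Fdft1 had 5.039, 29.58 and 0.306 CPM at D0 and 42.64, 28.57 and 48.35 CPM at D6. One D0 library held a single Fdft1 read, and the groups overlapped. The difference of 1.85 had a standard error of 1.19 (log2, adjusted p = 0.384). Sqle, with 66.04, 44.36 and 24.78 CPM at D0 and 65.35, 68.01 and 44.76 CPM at D6, differed by 0.48 (SE 0.56, adjusted p = 0.684). Idi1 had 0, 6.162 and 3.977 CPM at D0 and 9.674, 0 and 0 CPM at D6, and its log2 difference of 0.02 (SE 2.56, adjusted p = 0.998) has no direction.

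After 15 h of 4sU, 2 of the 7 genes rose and 0 fell, against 7.64% of all genes tested called higher and 6.83% lower. In 4 of the 7 genes all D6 libraries exceeded all D0 libraries, against 15.4% of genes. Hmgcs1 was the gene of the 7 that passed in both pairs of groups. These pairs share no library.

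**Figure D1:**
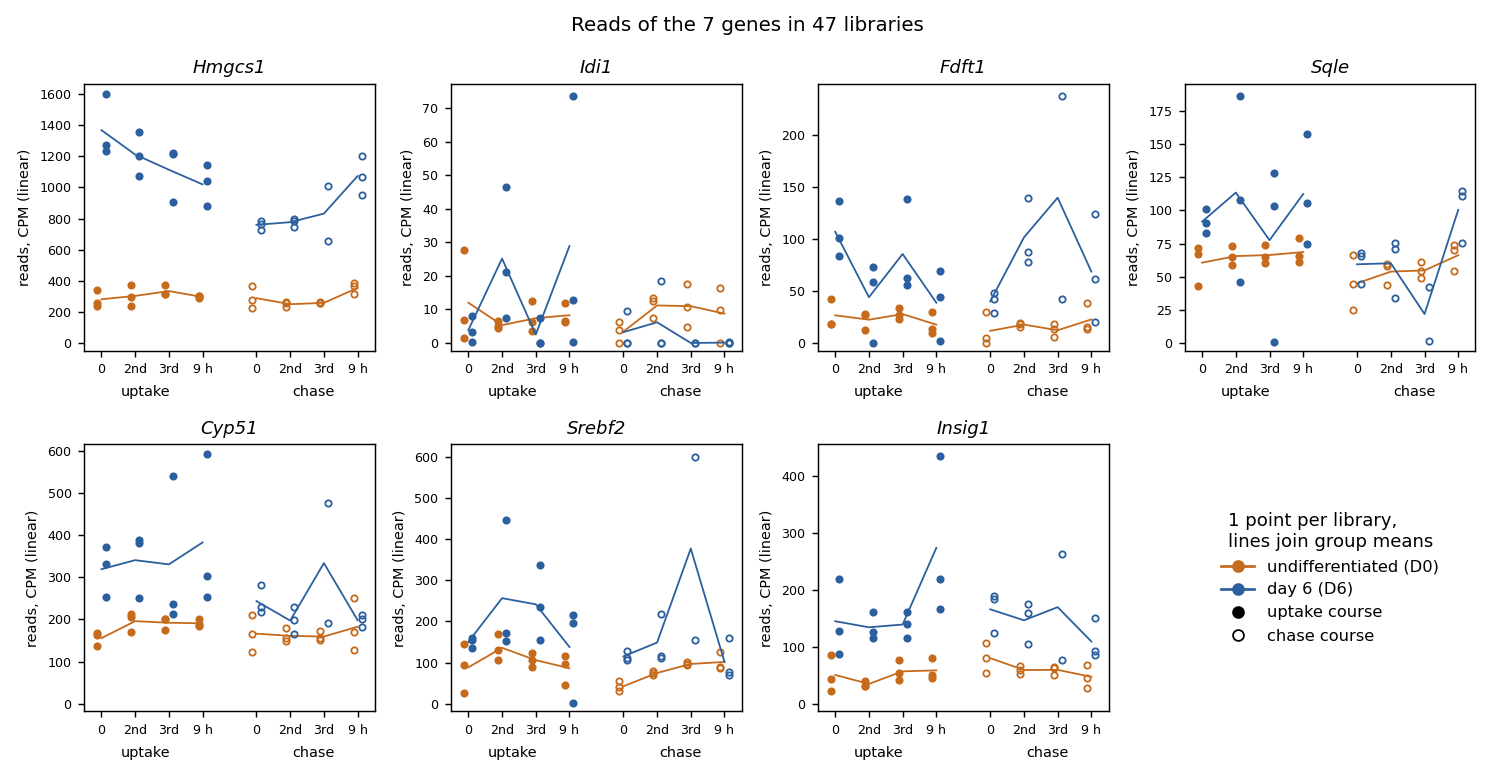
Reads of the 7 genes in each of the 47 libraries (CPM, linear axis, 1 point per library, lines through group means), by sampling point of the uptake (filled) and chase (open) course. Hmgcs1 is the gene whose D6 libraries (652.7 to 1599 CPM) all lie above its D0 libraries (222 to 385.5 CPM).

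All 47 libraries were then fitted together, with assay and time as a term, a fit chosen after seeing the data. Hmgcs1 ranged from 222 to 385.5 CPM over 24 D0 libraries (median 292) and from 652.7 to 1599 CPM over 23 D6 libraries (median 1040). It was the single gene of the 7 whose states did not overlap at all, an order found in 1.61% of genes. Its difference was 1.77 (log2, SE 0.09, adjusted p = 9.01e-28).

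Insig1 ranged from 22.2 to 106.5 CPM at D0 (median 52.58) and from 76.28 to 435.3 at D6 (median 150.7), and all 23 D6 libraries were above the D0 median. Fdft1 ranged from 0.306 to 42.48 CPM at D0 (median 18.44) and from 0 to 237.1 at D6 (median 62.47), with 21 of 23 above the D0 median. Cyp51 ranged from 123.1 to 251.4 CPM (median 170.5) and from 165.2 to 591.9 (median 251.7), with 22 of 23 above it. In these 3 genes the bulk of the D6 libraries was shifted upward while the extremes overlapped. The log2 differences were 1.51 (SE 0.18, adjusted p = 1.8e-10) for Insig1, 1.86 (SE 0.36, adjusted p = 1.62e-05) for Fdft1 and 0.70 (SE 0.13, adjusted p = 6.29e-06) for Cyp51.

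Srebf2 ranged from 26.66 to 168.7 CPM at D0 (median 93.16) and from 2.303 to 600.4 at D6 (median 154.4). The 2.303 and the 600.4 both came from libraries under 2000000 reads, and 20 of 23 D6 libraries were above the D0 median. The difference was 0.98 (log2, SE 0.22, adjusted p = 0.000188). Sqle ranged from 24.78 to 79.38 CPM (median 61.13) and from 0.6836 to 186.4 (median 75.75), and its difference of 0.35 (SE 0.27, adjusted p = 0.291) did not pass. Idi1 was 6.528 CPM in the median D0 library and 0.2828 in the median D6 library, and its difference of −0.99 (SE 0.90, adjusted p = 0.374) did not pass.

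In this fit 5 of the 7 genes rose and 0 fell, while 20.1% of all genes tested were called higher and 28.8% lower, around a median of −0.27 (log2) over all genes. Without the 4 libraries under 2000000 reads, the 5 genes that passed were again higher, and Sqle came to 0.52 (SE 0.23, adjusted p = 0.0557).

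The other genes of the pathway were counted from lists set beside the 7. Of 15 further enzymes of cholesterol synthesis, 1 rose and 1 fell without 4sU, which is near the 7.33% and 5.32% of all genes and says nothing particular about the list. Msmo1, which removes methyl groups from sterol intermediates, went from 85.62–91.53 to 203.2–334.8 CPM (log2 1.66, SE 0.31, adjusted p = 0.00617). The median of the 15 was 1.06, beside −0.05 over all genes (log2).

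After 15 h of 4sU, 1 of the 15 enzymes rose and 1 fell, beside 7.64% and 6.83% of all genes. Over the 47 libraries 8 of the 15 rose and 1 fell, beside 20.1% and 28.8% of all genes. Among the risers were Acat2, an acetyl-CoA acetyltransferase (log2 0.89, SE 0.10, adjusted p = 1.22e-11), and Msmo1 (log2 1.10, SE 0.19, adjusted p = 2.43e-06). Among 5 genes of SREBP processing (Scap, Insig2, Srebf1, Mbtps1, Mbtps2) 0 passed in any of the 3 comparisons. In the pairs of groups this is near the low shares of all genes, and says nothing particular about the list. Over the 47 libraries it stands beside the 20.1% and 28.8% above. Of 4 tested genes of sterol uptake and transport, 0 passed in either pair of groups, again near the shares of all genes called there. Npc2 alone passed over the 47 libraries (log2 0.49), which beside 20.1% of all genes says nothing particular about the list.

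**Figure D2:**
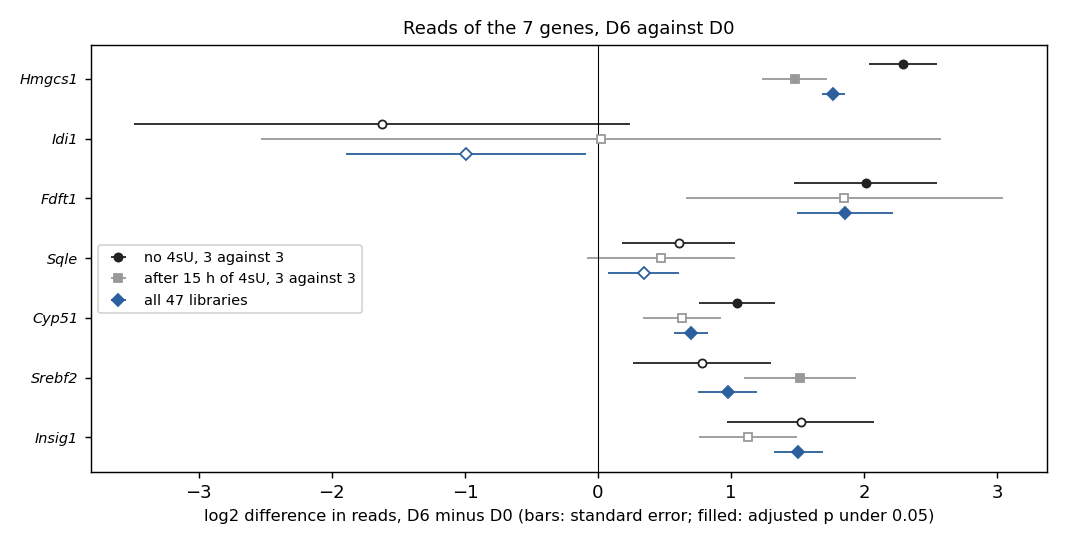
Log2 difference in reads between D6 and D0 (horizontal axis, with standard errors) for the 7 genes, without 4sU, after 15 h of 4sU and over 47 libraries. Filled symbols passed at an adjusted p under 0.05, which Hmgcs1 did in all 3 comparisons.

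Whether 4sU itself went with a change in these reads was read from labeled against unlabeled libraries of the same state. After 15 h the labeled libraries were those of the chase assay and the unlabeled ones those of the uptake assay, so 4sU and assay cannot be told apart there. At D6, Hmgcs1 had 1236 to 1599 CPM without 4sU and 727 to 786.4 after 15 h of it, and the ranges did not overlap. The difference of −0.82 (log2, SE 0.17, unadjusted p = 0.000143, adjusted p = 0.118) did not pass in edgeR's quasi-likelihood test. It passed in DESeq2 (adjusted p = 3.85e-05) and with no filter on low counts (0.0267), but not in the other 3 alternatives or without any single library (0.176 to 0.576). Fdft1 at D6 had 83.23 to 136.6 CPM without and 28.57 to 48.35 after 15 h, a difference of −1.39 (SE 0.45, adjusted p = 0.477, in DESeq2 0.029). In both genes the labeled D6 libraries all lay below the unlabeled ones. The same order held for Sqle (44.76 to 68.01 against 82.91 to 101.3 CPM) and Srebf2 (105.5 to 127.6 against 135.5 to 160.2 CPM). In Idi1, Cyp51 and Insig1 the ranges overlapped. The share of all genes with this order was not counted, so it says nothing particular about these genes.

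At D0 the Hmgcs1 difference was 0.04 (log2, SE 0.30), and the difference between the states in this change was −0.89 (SE 0.34, unadjusted p = 0.0171, adjusted p = 0.991). Of the 7 genes edgeR called 0 at D0, at D6 and for the difference between them, with 0, 2 and 1 genes at an unadjusted p under 0.05. DESeq2 called 0, 2 and 0. Over all genes edgeR called 0%, 0.0101% and 0.00892%, with 2.01%, 5.71% and 4.76% at an unadjusted p under 0.05, and DESeq2 called 0.0412%, 1.37% and 0.366%.

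Along uptake the D6 reads of Hmgcs1 averaged 1369 ± 200 CPM (SD, n = 3) at 0 h, 1212 ± 140 and 1114 ± 182 at the next points, and 1020 ± 133 at 9 h. The group means fell in order but by less than the spread between neighbouring points, and the change from 0 to 9 h was −0.43 (log2, SE 0.24, adjusted p = 1). After 9 h of 4sU edgeR called 0 of the 7 genes at D0 and 0 at D6, with 0 at an unadjusted p under 0.05 and 0 by DESeq2 in each state. Over all genes edgeR called 0% and 0%, with 2.31% and 3.57% at an unadjusted p under 0.05, and DESeq2 called 0.11% and 0.262%.

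During the chase the reads of Hmgcs1 at D6 went from 760 ± 30.2 CPM (SD, n = 3) at 0 h to 1074 ± 126 at 9 h, where the libraries had 950.5, 1068 and 1203 CPM. All 3 were above the 3 libraries at 0 h, though the share of all genes without overlap was not counted for the chase. The change was 0.47 (log2, SE 0.16, unadjusted p = 0.0118, adjusted p = 0.202 in edgeR, 0.0243 in DESeq2). At D0, Srebf2 had 55.17, 31.79 and 40.08 CPM before and 126.7, 87.41 and 90.41 CPM after 9 h of chase. The values did not overlap, but the change of 1.26 (SE 0.37, unadjusted p = 0.00519) had an adjusted p of 1.

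The change in Srebf2 at D6 less that at D0 was −1.47 (log2, SE 0.59, adjusted p = 0.334). Over the chase edgeR called 0 of 7 genes at D0, 0 of 6 at D6 and 0 of 7 for the difference, with 1 gene at an unadjusted p under 0.05 in each. DESeq2 called 0, 1 and 0. Over all genes edgeR called 0%, 0.761% and 0%, with 4.58%, 12.8% and 11.2% at an unadjusted p under 0.05, and DESeq2 called 0.227%, 7.09% and 2.1%, so a single gene of 6 or 7 is no result about the members.

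Label was read as the percentage of covered T positions that were converted. Without 4sU it was 0.170% at D0 and 0.164% at D6 over all genes. Cyp51 stood above that, with 0.72 ± 0.33% at D0 and 0.81 ± 0.42% at D6 (SD, n = 3), and Srebf2 had 0.42% and 0.47%, the former from single libraries at 0.8481%, 0.4168% and 0.003981%. Insig1 had 0.015% and 0.013%. Sqle at D6 had 0.02043%, 0.8643% and 0.01259%, so for it and for Srebf2 at D0 the background differed widely between libraries. Idi1 at D0, which had 196 to 3476 covered T positions and was not tested for label, had 3.011%, 1.02% and 1.41%, above Cyp51. After 15 h of 4sU the rate over all genes was 1.42% at D0 and 4.65% at D6.

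After 15 h, Hmgcs1 had 1.342%, 0.7931% and 1.305% at D0 and 4.09%, 3.972% and 3.663% at D6. Insig1 had 1.372%, 2.098% and 2.915% at D0 and 6.074%, 4.934% and 3.469% at D6. Both genes carried more label at D6, as did all genes together. The tests of label compare each gene with the rate over all genes of its library, and on that scale Hmgcs1 differed between the states by 0.05 (log2, SE 0.25) and Insig1 by −0.54 (SE 0.36). Edge values came from Fdft1 (−1.12, SE 1.26) and Sqle (1.57, SE 1.16, adjusted p = 0.906). Of the 6 genes tested edgeR called 0, with 0 at an unadjusted p under 0.05 and 0 by DESeq2, against 0%, 7.09% and 1.71% of all genes.

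**Figure D3:**
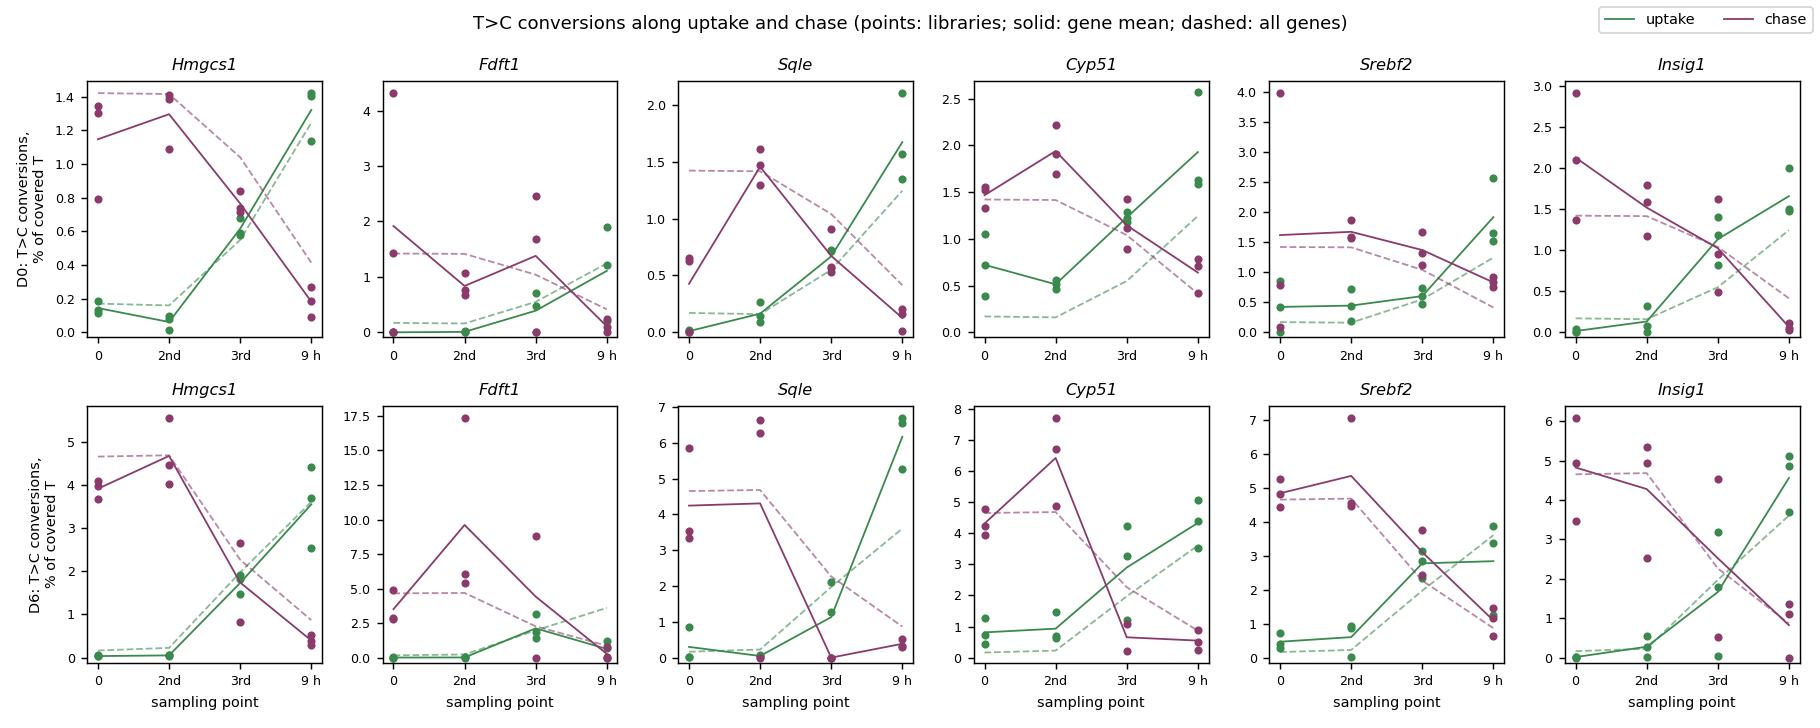
Conversion rate (percent of covered T positions, linear axis) along uptake and chase for 6 genes at D0 (top) and D6 (bottom), with 1 point per library, solid lines through group means and dashed lines for all genes. Insig1 at D0 falls from between 1.372% and 2.915% to at most 0.1185% after 9 h of chase, and Cyp51 starts uptake above the dashed line.

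The chase asks how much of this label was left after 9 h. Insig1 at D0 had 0.1185%, 0.05309% and 0.0261% at 9 h, all below any library at 0 h, so that 3.10 ± 2.23% of its starting rate was left (SD, n = 3), against 29.1 ± 1.13% pooled over all genes. The median gene had 17.3% left, and 15.2% of 8568 genes had less label left than Insig1. With the rate without 4sU taken off, Insig1 had 2.13% left, the median gene 10.1%, and 28.3% of 8358 genes had less than Insig1. Relative to all genes the difference was −3.19 (log2, SE 1.03, unadjusted p = 0.00324, adjusted p = 0.0607, edgeR quasi-likelihood test). It stayed just outside the threshold in this test. It was past the threshold in 5 of 9 alternatives, namely without the library-wide rate in the offset (adjusted p = 0.000638, a test of the loss itself and not of the loss relative to all genes), in DESeq2 (0.00294), with at least 10000 covered T positions (0.0343), in slopes over all time points (0.0457 with the hours of the methods, 0.00254 with those of the labels). It stayed outside in the other 4, with an adjusted p of 0.266 with the background subtracted and 0.288 at most, and in 5 of 6 fits without a single library (0.283 at most), the exception being that without D0 replicate 35 (0.0256).

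At D6, Insig1 had 1.371%, 0% and 1.099% after 9 h. The library at 0% had 13553 covered T positions, which allows a rate of up to 0.0221%, so its replicates did not agree within counting error. The mean share left was 17.1 ± 15.04%, against 18.6 ± 1.33% over all genes, and the difference relative to all genes was −0.12 (log2, SE 1.20). The Insig1 value at D6 less that at D0 was 3.07 (SE 1.45, unadjusted p = 0.0426, adjusted p = 0.484).

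Hmgcs1 went from the starting rates above to 0.1874%, 0.2682% and 0.09151% at D0 and to 0.3918%, 0.5175% and 0.281% at D6. The shares left were 15.9 ± 7.71% and 10.2 ± 3.03%, both under the share pooled over all genes and close to that of the median gene (17.3% and 11.4%). With the rate without 4sU taken off they were 3.86 ± 8.82% and 9.31 ± 3.06%, so the order of the states turned round and rests on the background. Relative to all genes the differences were −0.87 (log2, SE 0.54, adjusted p = 0.388) at D0 and −0.88 (SE 0.30, adjusted p = 0.215) at D6, nearly the same in both states (difference −0.01, SE 0.62).

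Srebf2 at D6 went from 5.246%, 4.825% and 4.444% to 1.176%, 1.468% and 0.6403%, which left 22.6 ± 8.67%. At D0 its starting libraries disagreed, at 0.7888%, 3.985% and 0.08436%, so its 51.3 ± 5.04% rests on an uncertain starting rate whose error this SD does not hold. Cyp51 went from 1.325%, 1.52% and 1.556% to 0.7087%, 0.7866% and 0.422% at D0, and from 4.773%, 4.218% and 3.946% to 0.874%, 0.5139% and 0.2539% at D6. The D0 rates of Cyp51 after 9 h lay at its rate without 4sU. With that background taken off, the share left went from 43.6% to −1.80% at D0 and from 12.7% to −5.48% at D6.

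Fdft1 and Sqle were read from fewer T positions. Sqle had 0.6554%, 0.6231% and 0% at 0 h at D0, and Fdft1 had 4.317%, 1.435% and 0%, the last from 22 covered T positions. In both genes the starting rate at D0 ranged down to 0. Their shares left at D6 were 9.10 ± 2.99% for Sqle and 7.71% for Fdft1, whose libraries ranged from 0 to 22.7%. With the background taken off, the share of Sqle at D6 was 5.09 ± 3.12%.

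Of the 6 genes edgeR called 0 at D0, at D6 and for the difference between states. At an unadjusted p under 0.05 these were 1, 1 and 1, and by DESeq2 1, 0 and 0. Over all genes edgeR called 4.77%, 0.935% and 0.0438%, with 18.1%, 16% and 9.85% at an unadjusted p under 0.05, and DESeq2 called 11.6%, 9.61% and 1.57%. The count of 1 gene in 6 is therefore near the background. The median over all genes was −0.65 at D0 and −0.67 at D6 (log2), so a gene at the middle of the list also lay below the rate over all genes, which the most read genes weigh on.

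**Figure D4:**
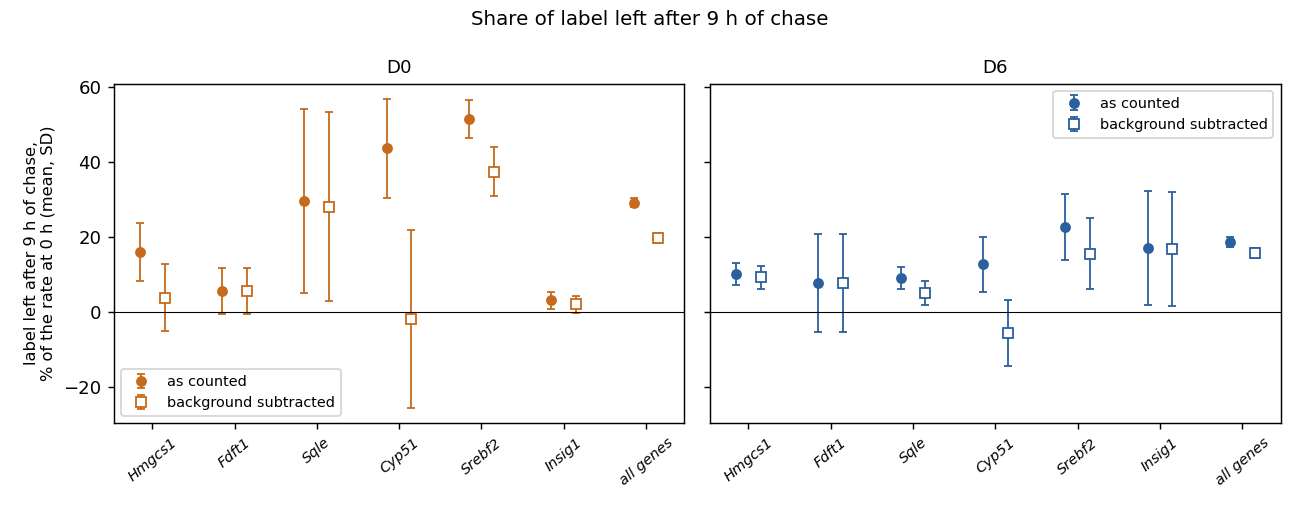
Label left after 9 h of chase, as a percentage of the rate at 0 h (mean and SD of 3 libraries at 9 h), for 6 genes and for all genes at D0 and D6, as counted (filled) and with the rate without 4sU taken off (open). Insig1 at D0 is at 3.10% as counted, and Cyp51 at D0 moves from 43.6% to −1.80%.

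The label after 9 h of uptake was set against that after 15 h. For Hmgcs1 it reached 115% of the 15 h rate at D0 and 90.7% at D6, for Insig1 77.9% and 94.5%, and for all genes 87.6% and 77.5%. Cyp51 reached 131.5% and 100.5%, Srebf2 118.4% and 58.69%, and Fdft1 only 57.85% and 17.87%. In 1 of the D6 libraries Fdft1 had 72 covered T positions and Srebf2 had 80. For Sqle it was 392% at D0 and 145% at D6. The Sqle value at D0 stands on the low 15 h rates given above, and relative to all genes it was 2.08 (log2, SE 0.87, unadjusted p = 0.032, adjusted p = 0.649). At D6 it was 0.94 (SE 0.44, adjusted p = 1). Of the 6 genes edgeR called 0 at D0, at D6 and for the difference, with 1, 0 and 0 at an unadjusted p under 0.05 and 0, 0 and 0 by DESeq2. Over all genes edgeR called 0%, 0% and 0%, with 7.04%, 4.43% and 7.74% at an unadjusted p under 0.05, and DESeq2 called 2.01%, 0.38% and 0.865%.

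Half-lives were taken from exponential fits over the hours in the methods and kept where R squared was over 0.6 and the half-life at most 5000 min. For the 7 genes 6 of 28 fits met this. The one decay half-life among them was that of Insig1 at D0, 256 min (SE 61, R squared 0.676, 12 libraries). Over all genes 1315 of 9158 decay fits (14.36%) met it at D0, with a median of 285.1 min, and 15.76% at D6. For synthesis the shares of all genes were 21.37% at D0 and 8.725% at D6. The Insig1 decay fit at D6 (339.9 min, SE 112.9, R squared 0.533) and those of Hmgcs1 at D0 (460.7 min, SE 144.2) and D6 (374.7 min, SE 138.3) did not meet it. With the hours of the labels all 4 of these fits met the criteria, at 147.9 min (Insig1, D0), 215.5 min (Insig1, D6), 285.8 min (Hmgcs1, D0) and 225.5 min (Hmgcs1, D6), so both the values and which of them count depend on the hours. From 0 and 9 h alone, where labels and methods agree, the Insig1 value at D0 was 107.7 min with a standard error of 132.9 min.

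The half-lives of synthesis, fitted in the same way to the rise of label toward its level at 15 h, were 256.7 min (SE 72.3) at D0 and 353.1 min (SE 82.4) at D6 for Hmgcs1. For Insig1 they were 356.3 min (SE 61) and 361.7 min (SE 98.9). Srebf2 met the criteria at D6 alone, with 404.9 min (SE 74.8). With the hours of the labels they were 150.8 and 215.1 min for Hmgcs1 and 216.9 and 225.4 min for Insig1, and the Srebf2 fit no longer met the criteria (R squared 0.494). With either set of hours the ranges of 1 SE around the D0 and D6 values overlapped for Hmgcs1 and Insig1. From 0 and 9 h alone Insig1 had 247.8 min (SE 37.9) at D0 and 129.0 min (SE 46.5) at D6, whose ranges did not overlap, so no order of the states holds. With the background taken off, the Hmgcs1 fit over all time points at D0 no longer met the criteria (R squared 0.587). From 0 and 9 h alone Hmgcs1 had no usable value at D0 (9.847 min, SE 8.533e+14 min) and 157.4 min (SE 62.9) at D6. Medians over all genes were 420.9 min at D0 and 381.6 min at D6.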

How the data were processed

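The authors aligned 3′ end reads to mm10 and counted them per 3′ UTR with SLAMdunk (version 0.3.3 per the file headers), so the deposited tables hold counts of reads, of covered T positions and of T>C conversions. The tables also hold, as the authors deposited them, read abundance as CPM and the conversion rate as a fraction of covered T positions, which were not used for tests. The deposited counts were used as they stand, with the mRNA transcript of most covered T positions for each gene. Members and lists were chosen with earlier results of these data known. Every member was named, with up to 3 genes per direction from other lists. Some genes of those lists that this rule would name are not reported here.

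Reads and conversions were tested with edgeR 4.0.16 (quasi-likelihood test, TMM, filterByExpr, Benjamini-Hochberg at 0.05, R 4.3.3). The SE of a log2 difference was derived from this test, as the absolute difference over the square root of its F statistic. Conversions had an offset of log covered T positions plus log library-wide rate and a minimum mean of 1000 positions. CPM in the text were computed anew from the counts, scaled by TMM over 13254 genes. The summed marker values and the limits for a count of 0 were instead scaled to the plain read total of each library. DESeq2 1.42.0 was an alternative. On simulated counts, the test of reads without 4sU (9796 genes) recovered 21.1% of changes of 2 on the log2 scale. That of label left recovered 9.4% at D0 (8785 genes), 0% at D6 (8846 genes) and 1% for D6 minus D0 (9115 genes). Most 4-fold changes were thus missed in the simulation. It changed few genes (for reads 92 by 1 and 95 by 2, log2), while in the data 750 were called higher and 545 lower. As the adjustment depends on that number, the rate of missed changes in the data was not measured. Time points are 0, 1, 3 and 9 h in the labels and 0, 3, 6 and 9 h in the methods, and labeling before the chase is 15 h or 13 h. Tests used 0 and 9 h.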

Additional observations from a re-analysis of the deposited data

How the results depend on the processing

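Hmgcs1 stayed higher at D6, past the threshold, under each alternative and without each library in turn, both without 4sU (adjusted p 7.04e-05 to 0.00369 when a library was left out) and after 15 h of it (0.00316 to 0.0175). In 1 fit of all 16 groups, 3 calls were lost: Fdft1 (adjusted p = 0.23) and Cyp51 (0.0536) without 4sU, and Srebf2 after 15 h (0.145). Insig1 without 4sU was called with no filter on low counts (0.0485). Idi1 after 15 h turned to −0.077 with DESeq2, −0.066 with RLE size factors, −0.125 with every transcript and −0.05 in 1 fit, and ranged from −6.54 to 0.78 without single libraries. Hmgcs1 in labeled against unlabeled D0 cells ranged from −0.17 to 0.21. Without the library-wide rate in the offset, Hmgcs1 label after 9 h of chase passed in both states, at −2.65 and −3.30.

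Counts of called genes moved as follows, without causes tested. Reads D6 against D0 without 4sU were 1295, and 2151 with DESeq2, 2112 with every transcript, 6486 over 47 libraries, 6631 without shallow libraries, 707–1384 without single libraries. After 15 h they were 1445, and 2196 with DESeq2, 2323 with every transcript, 846–1334 without single libraries. For 15 h against none, D0 went from 0 to 5 (DESeq2) and 8 (1 fit), D6 from 1 to 168 (DESeq2), 41 (no filter) and 8 (every transcript), 0–3 without single libraries, and their difference from 1 to 46, 25 and 0 in that order, 0–6 without single libraries. For 9 h of uptake, DESeq2 and 1 fit gave 14 and 1 at D0 and 31 and 7 at D6, in place of 0. For chase reads, D0 went from 0 to 29 (DESeq2) and 5 (no filter), 0–1 without single libraries, D6 from 73 to 859 (DESeq2), 382 (no filter) and 11 (1 fit), 1–168 without single libraries, and the difference from 0 to 273, 191 (no filter) and 25 (every transcript), 0–18 without single libraries.

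Label left at D0 was 428, and 1032 with DESeq2, 209 with background subtracted, 169 with that and 200 positions, 2266 without the library-wide rate, 658 with every transcript, 708 and 1624 as slopes by the hours of methods and labels, 263–616 without single libraries. At D6 it was 84, and 829 with DESeq2, 156 with 10000 positions, 2850 without the rate, 131 as labels' slope, 50–122 without single libraries. The difference was 4, and 138 with DESeq2, 40 with background subtracted, 29 with that and 200 positions, 2 with 200 positions, 28 without the rate, 11 with every transcript, 2 and 19 as slopes, 0–27 without single libraries. Label at 15 h went from 0 to 152 (DESeq2), 15 (10000 positions) and 2370 (no rate), 0–2 without single libraries. For 9 h over 15 h DESeq2 gave 181 at D0, 33 at D6 and 77 for the difference in place of 0, with 5 after background subtraction and 0–16 without single libraries for the last. Half-life fits that met the criteria were 6, and 11 with the labels' hours, 16 with 0 and 9 h only, 17 with that and background subtracted, 24 with no minimum of R squared, and 4–8 without single libraries. Several fits counted with 0 and 9 h only hold no usable half-life. Among them were synthesis of Sqle at D6 (9.847 min, SE 1.839e+15 min) and of Cyp51 at D6 (10.4 min, SE 1.39e+14 min).

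No paired analysis was possible because each library number in the labels occurs once.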

Other observations

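Of 4 tested genes of sterol efflux and the liver X receptors, 2 were called higher without 4sU and 0 lower, beside 7.33% and 5.32% of all genes. Both were at or near 0 at D0 and could pass the filter on low counts only through D6, so the count supports nothing. Abca1, which exports cholesterol to lipid-poor apolipoproteins, had 0–0.3097 CPM at D0 and 9.678–66.8 CPM at D6 (adjusted p = 0.00612, edgeR quasi-likelihood test), and Abcg1, which exports it to lipoprotein particles, had 0–0.1549 and 4.612–24.84 CPM (adjusted p = 0.0441). After 15 h of 4sU Abca1 alone passed (adjusted p = 0.000451). Over 47 libraries Nr1h3, the gene of liver X receptor alpha, was lower at D6 (log2 −3.14, adjusted p = 0.00325) while Abca1 and Abcg1 were higher. Over all genes 20.1% were called higher and 28.8% lower there. Without 4sU Nr1h3 had 0–4.902 CPM at D0 and 0–1.113 CPM at D6. It was thus near 0 at D6, as Abca1 and Abcg1 were at D0, so these calls support nothing either. Of 5 genes in the isoprenoid branches 0 passed in either pair of groups, near the low shares of all genes called there. Over 47 libraries Ggps1, geranylgeranyl diphosphate synthase, was higher (log2 1.15) and Fnta, a farnesyltransferase subunit, lower (log2 −0.70). That is 1 of 5 in each direction, beside 20.1% and 28.8% of all genes, which says nothing particular about the list.

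Of 8 genes of fatty acid synthesis, 2 rose without 4sU and 0 fell, beside the same shares of all genes. Acly, which makes cytosolic acetyl-CoA, had 273.4–357.3 CPM at D0 and 590.3–853.6 at D6 (log2 1.08, adjusted p = 0.0213), and Scd2, a stearoyl-CoA desaturase, had 314.3–420.3 and 797.4–943.9 (log2 1.31, adjusted p = 0.0054). After 15 h of 4sU both passed again and Elovl6 fell (log2 −0.94, adjusted p = 0.0491). Over 47 libraries the same 2 rose and 4 fell, beside 20.1% and 28.8% of all genes, the 3 falls with the smallest p being Fasn (log2 −0.61), Me1 (−2.90) and Elovl6 (−0.73). The 2 desaturases moved apart in this fit, since Scd1 was the other gene that fell (log2 −0.87).

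Over the 16 group means of log2 CPM, the genes whose profile was most like the mean of the 7, out of 8941 genes, were Astn1 (Pearson r = 0.885), Abr (0.874), Arfgap3 (0.868), Rusc2 (0.867) and Hey1 (0.866). The points are of both states, so differences between D0 and D6 enter these values together with differences among points of 1 state. Neuronal markers, most of them called higher at D6, ranked from 81 (Snap25, r = 0.781) to 527 (Elavl3, r = 0.674). Over the 47 libraries with the mean of each state taken off, the most alike were Ttc12 (0.646), Tada2b (0.623), Adpgk (0.57), Polr3a (0.566) and Kif7 (0.561), none of them in a list above. In both cases the profiles were centred but not scaled. Genes of widely spread values, such as Idi1, at 0 in 12 libraries, therefore weigh more on the mean of the 7. Each of the 7 genes set against the mean of the others over the 16 means gave 0.708 for Cyp51, 0.557 for Hmgcs1, 0.365 for Insig1, 0.195 for Srebf2, 0.082 for Sqle, −0.027 for Fdft1 and −0.461 for Idi1. Over the 47 libraries with the mean of each state taken off, these values ran from −0.282 (Fdft1) to 0.145 (Hmgcs1).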
